A study of Mus musculus with 6 samples.

Results

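The 7 genes described here are the cyclin-dependent kinase inhibitor genes Cdkn1a, Cdkn1b, Cdkn2a, Cdkn2b, Cdkn2c, Cdkn2d and Cdkn3, chosen by name, of 21954 genes in the mRNA table. RNA came from whole thymus of C57BL wild-type mice aged 5 weeks: 3 control mice that were not irradiated, and 3 mice exposed once to 6 Gy of X-rays. Tissue was taken 24 h later, and sex and batch are not among the labels. Polyadenylated RNA was sequenced to an estimated 21900000 to 25600000 fragments per library, and abundance is in FPKM, fragments scaled by transcript length and library depth, so that levels of different genes can be set side by side. The labels name 3 mice per group but do not match mice to libraries, and the p-values below reflect differences among the 6 libraries, which may in part be technical.

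Cyclin-dependent kinases (CDKs) drive the cell cycle when bound to a cyclin, and CDK inhibitors stop them. The Cip/Kip inhibitors, p21 (Cdkn1a) and p27 (Cdkn1b), bind the kinase together with its cyclin. The INK4 inhibitors, p16 (Cdkn2a), p15 (Cdkn2b), p18 (Cdkn2c) and p19 (Cdkn2d), bind CDK4 and CDK6 and keep them from cyclin D, which leaves the retinoblastoma protein active and E2F factors silent. Cdkn2a also encodes p19Arf, which shields p53 from MDM2, from another first exon. Cdkn3 differs in kind, since its product is a phosphatase that acts on CDK2 and CDK1 and its message is made mainly in dividing cells. In the thymus, p27 and p18 are known to restrain thymocyte division, and p21 is a direct target of p53 after DNA breaks.

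The promoter of Cdkn1a is shown because it is the member with the largest change and its upstream start carries a p53 motif. Below are the 250 bases before the start site at 29090979 (RefSeq, GRCm38.p6, plus strand, chr17:29090729-29090978). Capitals mark the match to a p53 site, written as a pair of consensus half-sites with no spacer and at most 1 mismatch, on either strand.

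Cdkn1a upstream promoter: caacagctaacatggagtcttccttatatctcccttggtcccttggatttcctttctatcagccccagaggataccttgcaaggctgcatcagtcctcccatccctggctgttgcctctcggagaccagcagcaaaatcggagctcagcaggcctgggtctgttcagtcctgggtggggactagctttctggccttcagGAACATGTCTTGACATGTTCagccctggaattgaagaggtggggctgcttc

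The match covers 29090928 to 29090947, begins 51 bases before the start site and has 1 mismatch. Such a match is in 25 of 32851 promoters of the same length (0.0761%). Among the 10 promoter windows listed for the 7 genes it was the only one, and the other Cdkn1a window, before the start at 29093769, has none. A part of the Cdkn3 promoter is shown because it holds the CHR element, a motif of genes expressed in dividing cells, spelled TTTGAA on either strand (plus strand, chr14:46760390-46760475, capitals at the match).

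Cdkn3 promoter: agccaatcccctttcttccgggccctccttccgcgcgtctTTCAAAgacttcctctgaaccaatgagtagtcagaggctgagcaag

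This match begins 111 bases before the Cdkn3 start site. TTTGAA is in 16.0% of all promoters of this length and, among the other members, in that of Cdkn2b. The box CCAAT, also read on either strand, occurs 3 times in the Cdkn3 promoter, 2 times in that of Cdkn1b and once in that of Cdkn2d, and is in 33.8% of all promoters. An E2F motif, also searched, matched once among these windows, at -99 from the upstream Cdkn2a start (89294619), and is in 1.86% of all promoters. A match is a description of letters only.

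Of the 7 genes, 3 were higher in irradiated thymus (Cdkn1a, Cdkn2a, Cdkn2b), 3 were lower (Cdkn1b, Cdkn2d, Cdkn3) and Cdkn2c did not pass, in limma on log2(FPKM + 0.1) over 14001 genes at a Benjamini-Hochberg adjusted p under 0.05. The background was 42.4% of all tested genes higher and 20.9% lower, 63.2% in all. Against a background that high, the number of members called is no result about these genes, and their sizes and levels are what is described below. The groups did not overlap in 6 of 7 members (3 higher and 3 lower), against 70.8% of all tested genes (46.1% higher and 24.7% lower). The median log2 fold change was -0.29 over the members and 0.40 over all genes tested. Directions within each inhibitor family were mixed: Cip/Kip members went opposite ways, and so did INK4 members. In whole tissue, fewer cells of a type and less RNA per cell cannot be told apart.

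**Figure D1:**
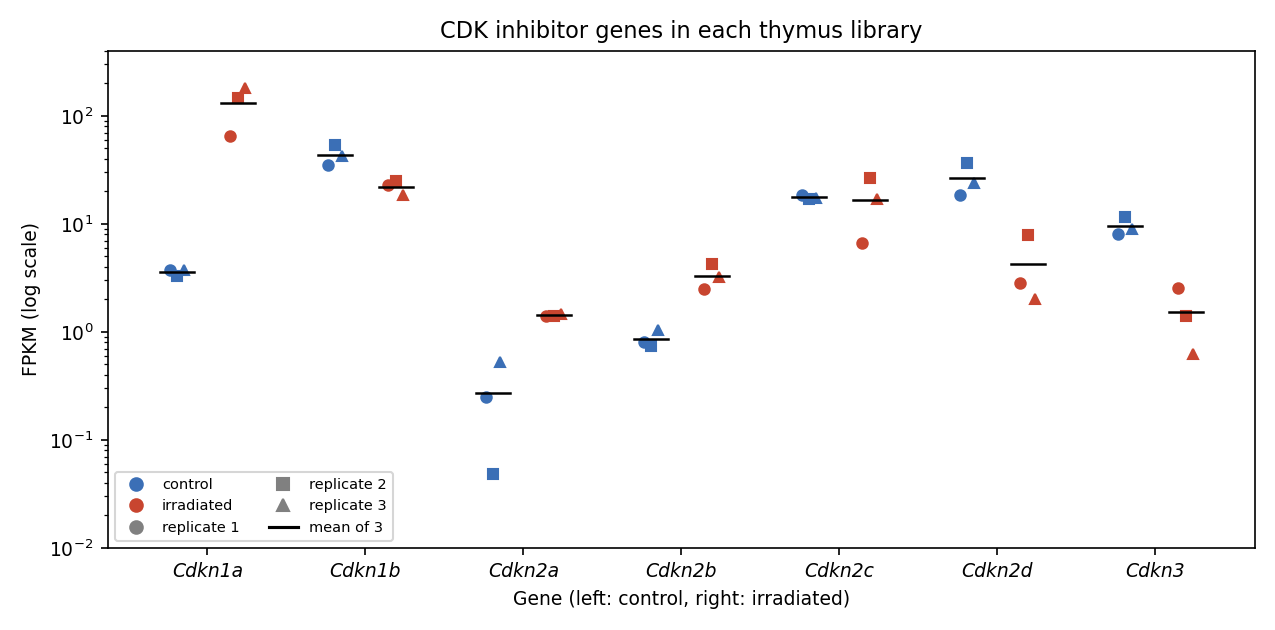
FPKM of the 7 CDK inhibitor genes on a log axis, with 1 point per library (blue control, red irradiated, shape for replicate) and a line at the mean of 3. Cdkn1a stands at 3.27 to 3.75 FPKM in the controls and at 64.7 to 182 FPKM after irradiation, while the groups overlap only for Cdkn2c.

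Cdkn1a (ENSMUSG00000023067, chromosome 17, 29090979 to 29100727, plus strand) encodes p21, the inhibitor that arrests cells after p53 activation. It measured 3.70, 3.27 and 3.75 FPKM in the control libraries and 64.7, 147 and 182 FPKM in the irradiated libraries. All irradiated values lay far above all controls, and irradiated replicate 1 was the lowest of its group. The mean went from 3.57 ± 0.265 to 131 ± 60.2 FPKM (SD, n = 3 each), a ratio of 36.7. The log2 fold change was 5.04 (95% interval 4.18 to 5.89, limma adjusted p = 8.27e-05), the 34th largest rise among the 14001 genes. By mean FPKM it moved from percentile 36.4 of tested genes in the controls to percentile 98.3. Of its mRNA, 301 of 2712 stretches of 50 bases also occur in transcripts of other genes, whereas the other 6 members share none, so a small part of the Cdkn1a reads may be ambiguous.

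Cdkn1b (ENSMUSG00000003031, chromosome 6, 134920401 to 134925513, plus strand) encodes p27, which holds resting cells out of the cycle. It measured 35.2, 53.6 and 42.2 FPKM in the controls and 22.7, 25.0 and 18.4 FPKM after irradiation. The groups did not overlap, and the drop was moderate beside those of Cdkn2d and Cdkn3. The mean went from 43.7 ± 9.29 to 22.1 ± 3.35 FPKM, 50.5% of the control level. The log2 fold change was -0.97 (95% interval -1.44 to -0.51, limma adjusted p = 0.00444).

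Cdkn2a and Cdkn2b lie beside each other on chromosome 4. Cdkn2a (ENSMUSG00000044303, 89274471 to 89294653, minus strand) encodes p16 from a start at 89282192 and p19Arf from a start at 89294653, and the table gives 1 value for both. It measured 0.250, 0.0482 and 0.522 FPKM in the controls and 1.41, 1.39 and 1.46 FPKM after irradiation. The irradiated libraries were nearly alike and above every control, but the level was low throughout, at percentile 8.3 of tested genes after irradiation. The control values rest on few reads, about 4.8, 0.95 and 9.7 fragments if the shorter transcript (852 bases) is assumed, and the irradiated values on about 30 each. The mean went from 0.273 ± 0.238 to 1.42 ± 0.0355 FPKM, with a log2 fold change of 2.25 (95% interval 0.95 to 3.56, limma adjusted p = 0.00997). Cdkn2a passed the filter of a mean of 0.5 FPKM only through its irradiated libraries. With a pseudocount of 1 its log2 fold change was 0.94, and with 0.01 it was 2.83.

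Cdkn2b (ENSMUSG00000073802, 89306299 to 89311039, minus strand) encodes p15, an inhibitor known to respond to TGF-beta. It measured 0.801, 0.744 and 1.03 FPKM in the controls and 2.48, 4.24 and 3.21 FPKM after irradiation, again with no overlap. The mean went from 0.860 ± 0.154 to 3.31 ± 0.888 FPKM, a ratio of 3.85, and the log2 fold change was 1.81 (95% interval 1.14 to 2.48, limma adjusted p = 0.00144), or 1.2 with a pseudocount of 1. After quantile normalization, which gives all libraries 1 distribution, neither gene passed: Cdkn2a was at 0.63 (limma adjusted p = 0.352) and Cdkn2b at 0.56 (adjusted p = 0.120). Relative to the median of all genes, they stood 0.69 and 0.62 higher there, and 1.85 and 1.41 higher in the deposited FPKM.

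Cdkn2c (ENSMUSG00000028551, chromosome 4, 109660876 to 109667189, minus strand) encodes p18. It measured 18.5, 17.1 and 17.3 FPKM in the controls, a narrow range, and 6.60, 26.4 and 17.1 FPKM after irradiation. Irradiated replicate 1 lay below all controls, replicate 2 above all controls and replicate 3 among them. The mean was 17.6 ± 0.742 and 16.7 ± 9.93 FPKM, and the log2 fold change was -0.29 (95% interval -1.36 to 0.78, limma adjusted p = 0.598), an interval that spans changes in either direction. Without irradiated replicate 1 the estimate was 0.27 (adjusted p = 0.227), and without irradiated replicate 2 it was -0.72 (adjusted p = 0.147). The authors' deposited table, from DESeq2, gives Cdkn2c a log2 fold change of -0.89 with an adjusted p of 0.0445. For the other 6 members the authors' deposited table has the direction given here, with log2 fold changes of 4.94 for Cdkn1a, -1.33 for Cdkn1b, 2.10 for Cdkn2a, 1.70 for Cdkn2b, -2.84 for Cdkn2d and -2.98 for Cdkn3.

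Cdkn2d (ENSMUSG00000096472, chromosome 9, 21288410 to 21291407, minus strand) encodes p19Ink4d, which is unrelated to p19Arf. It measured 18.3, 36.6 and 23.9 FPKM in the controls and 2.85, 7.94 and 2.03 FPKM after irradiation. Every irradiated library was below every control, and replicate 2 was the highest of both groups. The mean fell to 16.3% of control, from 26.3 ± 9.39 to 4.27 ± 3.2 FPKM, with a log2 fold change of -2.77 (95% interval -3.95 to -1.60, limma adjusted p = 0.00260).

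Cdkn3 (ENSMUSG00000037628, chromosome 14, 46760541 to 46771669, plus strand), the phosphatase gene, measured 8.02, 11.5 and 8.99 FPKM in the controls and 2.54, 1.39 and 0.623 FPKM after irradiation. No irradiated library reached a control. The mean went from 9.50 ± 1.79 to 1.52 ± 0.965 FPKM, 16.0% of control, and the log2 fold change was -2.74 (95% interval -3.81 to -1.68, limma adjusted p = 0.00176).

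**Figure D2:**
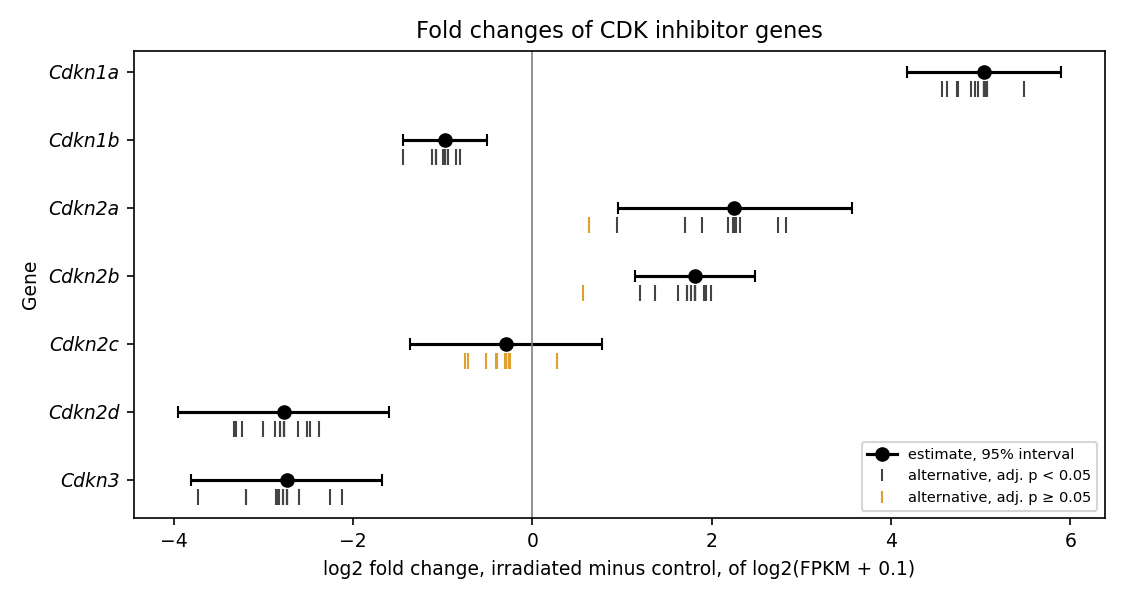
Log2 fold change (irradiated minus control, of log2(FPKM + 0.1)) of each gene with its 95% interval; the ticks under each point are the 15 alternative fits, black past adjusted p of 0.05 and orange not. Cdkn1a stays between 4.57 and 5.48, the orange ticks of Cdkn2a and Cdkn2b are quantile normalization, and Cdkn2c passes in none of the 15.

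The order of the inhibitors changed with irradiation. In the controls it ran Cdkn1b, Cdkn2d, Cdkn2c, Cdkn3, Cdkn1a, Cdkn2b and Cdkn2a from high to low. The ranges of Cdkn1b and Cdkn2d and of Cdkn2d and Cdkn2c overlapped, and from Cdkn2c down no neighbours did. In irradiated thymus the order was Cdkn1a, Cdkn1b, Cdkn2c, Cdkn2d, Cdkn2b, Cdkn3 and Cdkn2a, and only the gap between Cdkn1a and Cdkn1b was free of overlap. Added together, the 7 genes gave 84.8, 123 and 97.7 FPKM in control thymus. After irradiation the sum was 103, 213 and 225 FPKM, with replicate 1 inside the control range. As a share of that sum, Cdkn1a made up 4.36%, 2.66% and 3.84% in the controls and 62.6%, 68.9% and 80.9% after irradiation. Cdkn1b went from 42.8% ± 1.11 to 14.0% ± 7.17, Cdkn2d from 25.3% ± 4.16 to 2.46% ± 1.43 and Cdkn2c from 17.8% ± 3.94 to 8.79% ± 3.18 (SD, n = 3). Shares sum to a fixed total, so the share of Cdkn1a lowers the others, and no test was made on them.

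**Figure D3:**
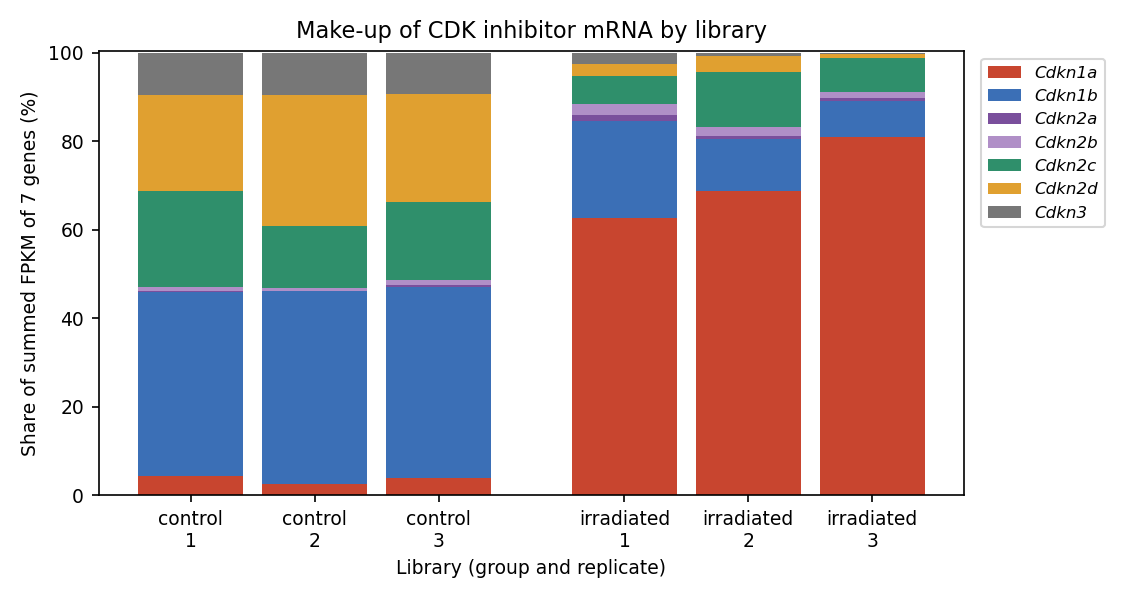
Share of each gene in the summed FPKM of the 7 CDK inhibitor genes (percent, stacked bars from 0), 1 bar per library. Cdkn1b is the largest part in the 3 controls, and Cdkn1a takes 62.6% to 80.9% in the 3 irradiated libraries. Next in the controls is Cdkn2d, except in replicate 1, where Cdkn2c (21.8%) is just above it (21.6%).

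The lncRNA table gave a second readout of the same loci. It lists 34 transcripts of 14 genes that are noncoding transcripts of a member or of noncoding genes within 50 kb, and 11 of these averaged at least 0.1 FPKM and were tested. Of the 11, 2 were higher and 3 lower at a limma adjusted p under 0.05, against 9.15% and 15.6% of the 30613 transcripts tested (24.7% in all). Both higher ones are at Cdkn1a, and both reached the filter only through their irradiated libraries, so their calls add no support to that count.

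The first is a processed transcript of Cdkn1a itself (ENSMUST00000232979, chromosome 17, 29090976 to 29091933, 1 exon), which starts at the upstream promoter printed above. Of its 958 bases, 123 (12.8%) are also exons of the Cdkn1a mRNAs, and unspliced Cdkn1a RNA cannot be told apart from it. It measured 0, 0.0450 and 0 FPKM in the controls and 1.5, 2.03 and 1.74 FPKM after irradiation, about 1 fragment in all controls against about 126. The ratio of these fragments, scaled for depth, was 114 with an exact binomial 95% interval of 20.1 to 4540 that covers counting error only. Its limma log2 fold change of 4.03 (adjusted p = 0.000915) depends on the pseudocount, with 6.63 at 0.01 and 1.44 at 1. The second is Trp53cor1, known as lincRNA-p21 and as a p53-induced RNA, on the opposite strand 11800 bases upstream (ENSMUST00000133221, 29057430 to 29079179). It measured 0.0278, 0.0386 and 0.0566 FPKM in the controls, about 9 fragments in all, and 1.21, 1.83 and 1.92 FPKM after irradiation. The log2 fold change was 3.62 (95% interval 2.84 to 4.40, limma adjusted p = 0.00124), but 5.04 with a pseudocount of 0.01 and 1.34 with 1, and the ratio of fragments scaled for depth was 40.0 (exact binomial 95% interval 20.9 to 88.1, counting error only). Gm41556, on the other strand, overlaps part of it, and whether counting used the strand is not stated. As for Cdkn1a mRNA, irradiated replicate 1 was the lowest of its group for both transcripts.

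Lockd, a noncoding RNA made downstream of Cdkn1b on the same strand, fell. Its longest transcript (ENSMUST00000183867, chromosome 6, 134929092 to 134956798) starts 3579 bases past Cdkn1b. It measured 4.70, 4.70 and 4.72 FPKM in the controls and 0.765, 0.179 and 0.291 FPKM after irradiation, a log2 fold change of -3.40 (95% interval -4.38 to -2.42, limma adjusted p = 0.00330). Cdkn1b itself was at -0.97, and the difference between neighbours was not tested. A shorter Lockd transcript, ENSMUST00000184991, was at -2.64 (adjusted p = 0.00547), on only about 32 fragments in all controls and 5 after irradiation. With a pseudocount of 1 they were at -2.04 and -1.25. The noncoding transcript of Cdkn3 (ENSMUST00000226621) fell too, at -2.07 (adjusted p = 0.00646), but 99.5% of its bases are also exons of the Cdkn3 mRNAs, so it is not a separate measurement. Of the 6 that did not pass, 2810454H06Rik, 19293 bases before Cdkn1b, was at -1.14 (adjusted p = 0.0739) and passed as lower without irradiated replicate 1 (-1.50, adjusted p = 0.0186). No transcript near Cdkn2a or Cdkn2b reached the filter.

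**Figure D4:**
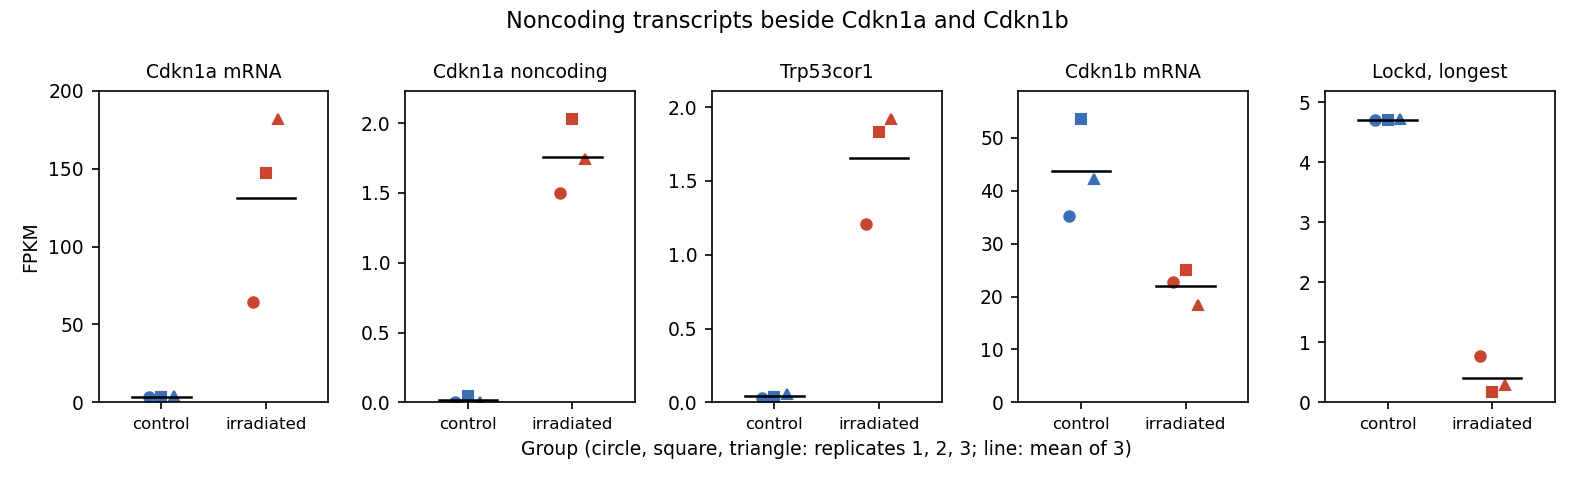
FPKM (linear axes from 0) of Cdkn1a mRNA, its noncoding transcript, Trp53cor1, Cdkn1b mRNA and the longest Lockd transcript; 1 point per library, shape for replicate, line at the mean of 3. The transcripts at Cdkn1a are near 0 in the controls and at 1.21 to 2.03 FPKM after irradiation, and Lockd drops from 4.70 to 4.72 FPKM to below 0.8 FPKM.

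Most of the listed cyclin and CDK genes fell, though not all of these are targets of the 7 inhibitors. Of 15 cyclin and CDK genes 10 fell, 2 rose and 3 did not pass, with a median log2 fold change of -1.12 (0.40 over all genes). Of all tested genes 20.9% fell and 42.4% rose, 63.2% in all. After median-ratio scaling 13 of the 15 fell. Ccne2, a cyclin of S phase entry, went from 23.2 ± 5.29 to 1.90 ± 0.892 FPKM (-3.61, limma adjusted p = 0.000189). Cdk1, Ccnb2 and Cdk2 were at -2.81, -3.14 and -1.48. The INK4 targets differed: Cdk4 was at 56.3 ± 4.30 and 53.5 ± 6.59 FPKM (-0.08, adjusted p = 0.667), and Cdk6 fell from 23.4 to 11.5 FPKM (-1.06, adjusted p = 0.00487). The call on Cdk4 depended on scaling, with -0.55 (adjusted p = 0.0328) after median-ratio scaling. Of the D cyclins, which INK4 proteins keep from these kinases, Ccnd3 fell (-1.51) and Ccnd2 rose (1.06). Ccnd1 was at 3.29, 3.00 and 3.71 FPKM in the controls and at 4.53, 20.6 and 35.6 FPKM after irradiation (2.14, adjusted p = 0.0275), a call lost when any 1 library but irradiated replicate 1 was left out (adjusted p = 0.067 to 0.0793) and after quantile normalization (0.103). Cdk7, of the CDK-activating kinase, was at -0.39 (adjusted p = 0.0539), and passed as lower without irradiated replicate 1 (-0.50), with quantile normalization (-0.56) and with median-ratio scaling (-0.86).

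Of 15 genes of the retinoblastoma and E2F layer, 11 fell, none rose and 4 did not pass, with a median of -1.04. The background was 20.9% of all tested genes lower and 42.4% higher. E2f2 went from 42.2 ± 3.78 to 3.53 ± 0.757 FPKM (-3.56, limma adjusted p = 5.3e-05). Lin9 of the DREAM and MuvB complex was at -2.03, the repressor gene E2f8 at -2.66 and the pocket protein gene Rbl1 at -1.04. The pocket protein gene Rbl2 was at 33.1 ± 6.32 and 35.4 ± 4.24 FPKM (0.11, adjusted p = 0.604).

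Of 12 other brakes on CDKs, 7 rose, 2 fell and 3 did not pass, with a median of 1.16. The background was 42.4% of all tested genes higher and 20.9% lower. Rprm, among the 7, reached the filter only through its irradiated libraries, so its call adds no support to that count. After quantile normalization or median-ratio scaling 4 fell, and without control replicate 1 or irradiated replicate 3 1 fell. Cdkn1c, which encodes p57, the remaining Cip/Kip inhibitor, measured 2.10, 2.53 and 2.40 FPKM in the controls and 7.71, 11.8 and 6.52 FPKM after irradiation (1.80, limma adjusted p = 0.000810). The growth arrest genes Gadd45g and Gadd45a were at 3.15 and 1.39. Pkmyt1, a kinase that holds CDK1 inactive, fell by 1.67 on the log2 scale. Quantile normalization gave 1.13 for Cdkn1c, 0.87 for Gadd45a and -2.72 for Pkmyt1.

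Among 25 genes that control the level or action of CDK inhibitors, 5 rose, 10 fell and 10 did not pass, with a median of -0.11. Of all tested genes 42.4% rose and 20.9% fell, 63.2% in all. The total passing here is near that 63.2%, so the total is no result about these genes. By direction, more of these genes fell than rose, where more of all tested genes rose, and this difference was not tested. The count of lower genes was 6 without control replicate 2 or control replicate 3, and 14 after median-ratio scaling, where 4 were higher. Trp53, which encodes p53, measured 25.1 ± 2.85 and 25.6 ± 6.66 FPKM (0.01, 95% interval -0.48 to 0.49, limma adjusted p = 0.982), beside the rise of its target Cdkn1a. Mdm2, another p53 target and its inhibitor, was at 34.1 ± 1.07 and 38.4 ± 5.72 FPKM (0.16, adjusted p = 0.354), and Mdm4 at -0.26 (adjusted p = 0.147). Skp2, which marks p27 for breakdown, fell from 4.13 ± 0.506 to 1.45 ± 0.739 FPKM (-1.54, adjusted p = 0.00639, and -2.69 after quantile normalization). Ezh2, of the Polycomb complex that silences the Cdkn2a and Cdkn2b locus, fell by 2.85 and Pcna, a binding partner of p21, by 2.30 on the log2 scale. Ets2, an activator of p16, was at -1.77. Klf4, a factor that can induce Cdkn1a, was at 2.70 and Tbx2, a repressor of the Cdkn2a locus, at 3.02 from 0.198 FPKM (1.45 with a pseudocount of 1, 1.49 after quantile normalization). Tbx2 and Tbx3, among the 5 that rose, reached the filter only through their irradiated libraries, so their calls add no support to that count. Foxo3 (0.38, adjusted p = 0.102) and Smad4 (-0.12, adjusted p = 0.381), activators of Cdkn1b and Cdkn2b, did not pass. After median-ratio scaling Smad4 (-0.59, adjusted p = 0.00685) and Mdm4 (-0.73, adjusted p = 0.00800) passed as lower, Mdm4 also without irradiated replicate 1 (-0.35, adjusted p = 0.0314). Trp53 (-0.46), Mdm2 (-0.31), Foxo3 (-0.09) and Rbl2 (-0.36) were negative under that scaling and did not pass, while Foxo3 passed as higher without irradiated replicate 3 (0.52, adjusted p = 0.0392).

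**Figure D5:**
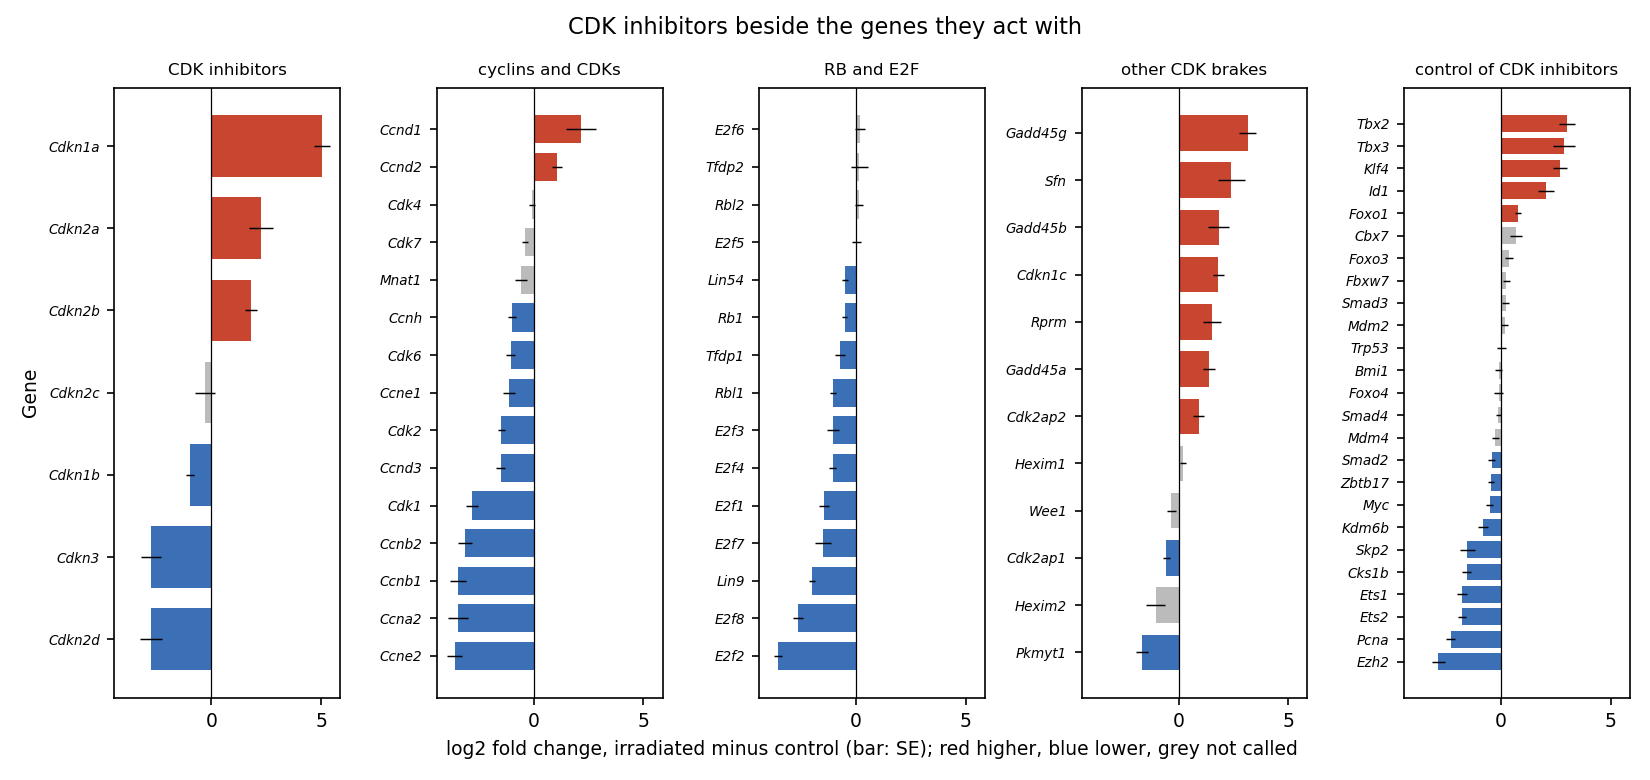
Log2 fold change (irradiated minus control) with its SE for the 7 CDK inhibitors and 4 lists of genes they act with; red bars passed as higher, blue as lower and grey did not pass. Most cyclin, CDK, retinoblastoma and E2F genes are blue, and 7 of 12 other CDK brakes are red. Of all tested genes 42.4% were higher and 20.9% lower.

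Cell type markers moved between the groups as well, against a background of 42.4% of all tested genes higher and 20.9% lower. All 10 markers of double-positive thymocytes fell, their summed level going from 2140 to 2470 FPKM in the controls to 65.4 to 125 FPKM, beside the drops of Cdkn2d, Cdkn3 and Cdkn1b. These markers define the main thymocyte stage of the thymus and were abundant in all 3 controls. Of 8 thymic epithelial markers 6 rose (232 to 392 FPKM in sum, then 600 to 886 FPKM), and of 6 mature T cell markers 3 rose and 1 fell (89.2 to 128 FPKM, then 118 to 173 FPKM). Of 5 B cell markers 1 fell and 4 did not pass (13.2 to 16.6 FPKM, then 5.63 to 20.6 FPKM), and of 4 erythroid markers none of the 3 tested passed (31.6 to 96.4 FPKM in the controls). All 8 fibroblast markers rose, from 71.0 to 94.6 FPKM in sum to 697 to 757 FPKM, as did all 8 of endothelium (5.57 to 6.27 FPKM, then 27.5 to 93.3 FPKM) and all 8 of macrophages (117 to 156 FPKM, then 827 to 1100 FPKM), beside the rises of Cdkn1a, Cdkn2a, Cdkn2b and Cdkn1c. The endothelial markers Flt1, Emcn, Tie1 and Tek reached the filter only through their irradiated libraries, so their calls add no support to that count. Irradiated replicate 1 had the lowest endothelial sum of its group (27.5 against 93.3 and 92.1 FPKM) and the lowest Cdkn1a and Cdkn2b. It was also lowest of its group for the sums of fibroblast (697 FPKM), macrophage (827 FPKM) and thymic epithelial markers (600 FPKM). The 2 epithelial markers that did not pass, Prss16 (-0.99) and Psmb11 (-0.78), were not lowest there. In irradiated replicates 1, 2 and 3 Prss16 was at 256, 93.3 and 25.8 FPKM, and Psmb11 at 15.7, 20.9 and 3.08 FPKM. The FPKM of irradiated replicate 1 summed over all genes was the lowest too (249245.4 against 316530.7 and 305775.7). Its sums of double-positive thymocyte (125 FPKM) and mature T cell markers (173 FPKM) were the highest of the group. Irradiated replicate 2 was the highest of its group for Cdkn1b, Cdkn2b, Cdkn2c and Cdkn2d. It also held the highest sums of airway (3290 FPKM, irradiated replicates 1 and 3 at 45.8 and 45.7) and fat markers (1640, then 84.4 and 678). The same held for skeletal muscle (137, then 4.3 and 27.9) and erythroid markers (3560, then 0.677 and 573). Of these, Scgb1a1, Scgb3a2, Sftpc, Acta1, Cidea, Ucp1, Hbb-bt and Slc4a1 were at 0 in at least 1 library. The part of any of these cell types in the results was not tested. Without irradiated replicate 2, Cdkn1a was at 4.89, Cdkn2b at 1.62 and Cdkn2d at -3.33, all past the threshold, and 3 members were higher and 3 lower as before.

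The genes most like each member were found by the root mean square difference between log2 ratios to the control mean, over the 6 libraries, among 10095 genes of at least 5 FPKM in the higher group. The likeness is a description of these libraries. Nearest to Cdkn1a were the metallothionein gene Mt1 (difference 0.29), the transglutaminase gene Tgm2 (0.30) and Anxa8 (0.36), all lowest in irradiated replicate 1 and highest in replicate 3 of that group. Cdkn2b was matched most closely, by Adcy9 (0.07), Gstm4 (0.09) and Osbpl5 (0.11). Cdkn3 was nearest to Myl10 (0.15), to Dut (0.28), which keeps uracil out of DNA, and to Tmem151b (0.31). For Cdkn1b they were Zfp68, Kdm6a and Mtss1 (0.15 each). For Cdkn2c they were Slc25a23 (0.16), Lats1 (0.19) and the mitochondrial gene mt-Co3 (0.21), which share its low value in irradiated replicate 1. Cdkn2a was nearest to Spaca6 (0.30), Adamts9 (0.34) and Coro2a (0.36). Cdkn2d had the least close neighbours, Ntrk3 (0.45), Kcnh2 (0.51) and Cfap74 (0.51).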

How the data were processed

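The authors deposited FPKM per library for mRNA genes and lncRNA transcripts, from polyadenylated RNA of 3 control and 3 irradiated thymuses, per the labels. Their tables also hold log2 fold changes and p-values. The submitters' processing notes name DESeq2 1.10.1. Which aligner and counter were run, and whether strand was used, is not stated in the labels or file headers. Coordinates of all member transcripts equal those of GENCODE M21 (GRCm38). Each gene's transcript lines repeat 1 set of FPKM values, and these were read once for each gene. In the lncRNA table, 62 lines without values were dropped.

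Depth was estimated from the commonest smallest FPKM times length as 21900000 to 25600000 fragments per library, which makes fragment numbers approximate.

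Tests used limma 3.58.1 in R 4.3.3 on log2(FPKM + 0.1), with group as the only term, an abundance trend, a minimum mean of 0.5 FPKM (0.1 FPKM for lncRNA transcripts) and Benjamini-Hochberg adjustment over each table. The procedure was tested on simulated data. Alternatives were pseudocounts of 0.01 and 1, no filter, at least 1 FPKM in 3 libraries, 3 scalings, no trend, the replicate block and each library left out. For the lncRNA table and the pathway lists they were added after the data were seen.

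Members and lists were chosen with earlier results of these data known. Named from each pathway list are the 4 smallest adjusted p, the largest change each way, uncalled genes of at least 20 FPKM, and Trp53, Mdm2, Skp2 and Cdkn1c. Cdk6, Ccnd2 and Ccnd3 were added after their values were seen, as INK4 partners. Genes of like pattern exclude symbols of the Gm, Rik and LOC kinds. Of the erythroid markers, 1 is not reported here.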

Additional observations from a re-analysis of the deposited data

How the results depend on the processing

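Of 15 alternatives, Cdkn1a, Cdkn1b, Cdkn2d and Cdkn3 kept direction and call in all (log2 fold changes of 4.57 to 5.48, -1.44 to -0.81, -3.33 to -2.38 and -3.73 to -2.12). Cdkn2a and Cdkn2b kept theirs in 14. Quantile normalization left 1 member higher, with Cdkn2a at 0.63 and Cdkn2b at 0.56, and gave 3501 genes higher and 4403 lower in all, against 5933 and 2920 in the deposited FPKM. Median-ratio scaling gave 4924 lower. The median log2 fold change of all genes was 0.40 as deposited, -0.07 after quantile normalization, -0.08 after median-ratio scaling and 0.30 after summed-FPKM scaling, and 67.0%, 44.3%, 47.0% and 65.5% of calls were higher. Cdkn2c passed in none, and its leave-one-out values ran from -0.72 to 0.27. The cause of these changes was not tested. Among genes that did not pass, Trp53 was at -0.11 after quantile normalization, -0.46 after median-ratio scaling, -0.09 after summed-FPKM scaling and from -0.19 to 0.18 with 1 library left out. Median-ratio scaling put Rbl2 at -0.36, Mdm2 at -0.31 and Foxo3 at -0.09, and Cdk4 ran from -0.14 to 0.03 with 1 library left out. Uncalled noncoding transcripts near members changed sign too: Gm48933 (-0.02 after quantile normalization, -0.09 to 0.51 with 1 library left out) and the 9630013D21Rik transcript ENSMUST00000127391 (-0.18 to 0.50). Same-numbered libraries did not deviate together (r across genes 0.06, -0.04 and 0.05). The labels state no pairing, and correlations of so few libraries do not settle whether mice were paired. With the replicate block 3 members were higher and 3 lower, Cdkn1a at 5.04. Depth limits the controls of Cdkn2a, Trp53cor1 and the noncoding Cdkn1a transcript, each at 10 fragments or fewer in a library. It also limits the shorter Lockd transcript, at about 5 fragments in all irradiated libraries.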
